A study of Mus musculus with 5 samples.

Results

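The genes described here encode 36 proteins of the synaptic vesicle and of the presynaptic release machinery, and they were taken by symbol from a list with no threshold on measured values, although earlier results of these data were known when the list was drawn up. All 36 were found among the 55573 genes of the deposited count tables, and all 36 had enough reads to be tested. The libraries were made from the right hemisphere of female C57BL/6 mice, 7 to 8 weeks old at inoculation, which carried a GL261 glioma in the right caudate nucleus-putamen. GL261 is a mouse glioma cell line, and here it also carried luciferase and mKate2 reporters. Every mouse was sampled 24 h after the last of its treatment sessions, which fell on days 21 and 24. The vehicle group (3 libraries) received an antibody dilution buffer. The UMBO group (2 libraries) received ultrasound-mediated blood-brain barrier opening, in which pulsed ultrasound is applied under anesthesia after an injection of microbubbles. The methods speak of anesthesia for all mice in the treatment protocols, and whether the vehicle mice also had microbubbles or a sham sonication is not given in the sources used here. The methods also describe 1 more mouse than the libraries at hand, which is not analysed here, so every UMBO value rests on 2 libraries.

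At a chemical synapse, transmitter is loaded into vesicles by transporters, and the vesicles are docked and primed at the active zone by large scaffold proteins. A calcium sensor of the synaptotagmin family then triggers the SNARE proteins to fuse the vesicle with the membrane, and endocytic proteins retrieve it. These genes are expressed mainly in neurons, and several of them differ between brain regions and neuron classes. Each library is bulk RNA, so fewer neurons in the tissue and less RNA per neuron cannot be told apart in any value below.

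Library totals ranged from 59736771 to 86164159 counts, and the lowest count of any of the 36 genes in a library was 144. Counting error was therefore small beside the spread between mice. UMBO replicate 2 stood apart from the other 4 libraries on the first principal component, which held 78.7% of the variance, and the main differences are given with and without it. No pair of libraries agreed within sampling noise.

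With UMBO, 34 of the 36 genes had a negative log2 fold change, and the median of the 36 was -0.56. Of all 23592 genes tested, 49.1% had a negative value and the median was 0.01. No presynaptic gene passed the adjusted threshold of 0.05 in the edgeR quasi-likelihood fit; the smallest adjusted p among them was 0.497, and 0% of all genes passed. At an unadjusted p under 0.05 there were 2 of the 36, synaptotagmin 2 (Syt2) and syntaxin 1A (Stx1a), both lower with UMBO, where 7.37% of all genes passed that threshold, 2.06% being lower and 5.30% higher. DESeq2's Wald test gave 7 of the 36 at the same unadjusted threshold, all lower with UMBO. Over all genes it gave 2738, of which 1970 were higher. That fit kept every gene with a count above 0, so these counts are not shares of the 23592 genes of the edgeR fit. After adjustment DESeq2 gave 0 of the 36. In 14 genes both UMBO libraries lay below every vehicle library, against 11.4% of all genes, and in none did both lie above, against 11.5%. The summed reads of the 36 genes made up 1.85%, 1.48% and 1.50% of all counts in vehicle replicates 1 to 3. They made up 1.51% in UMBO replicate 1, inside the vehicle range, and 0.864% in UMBO replicate 2.

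The difference was mostly that of UMBO replicate 2. In this library 35 of the 36 genes lay below every vehicle library, as did 41.3% of all genes in the fit without UMBO replicate 1. Of the 36, 25 lay more than 1 log2 unit below the vehicle mean, and the share of all genes at that distance was not counted. The median difference of the 36 genes from the vehicle mean was -1.16 in this library, in log2 CPM (counts scaled to the TMM-adjusted library size). UMBO replicate 1 had a median of -0.16, between vehicle replicates 2 (-0.22) and 3 (-0.01). It lay below every vehicle library in 15 genes, above every vehicle library in 2 and within their range in 19. Without UMBO replicate 2 the median log2 fold change was -0.18, with 28 genes negative and 8 positive, 1 gene (Syt2) at an unadjusted p under 0.05 (455 of all genes) and 15 genes in which the remaining UMBO library lay below every vehicle library (18.4% of all genes). Without UMBO replicate 1 it was -1.21. In 27 genes the log2 fold change was negative whichever library was left out.

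**Figure D1:**
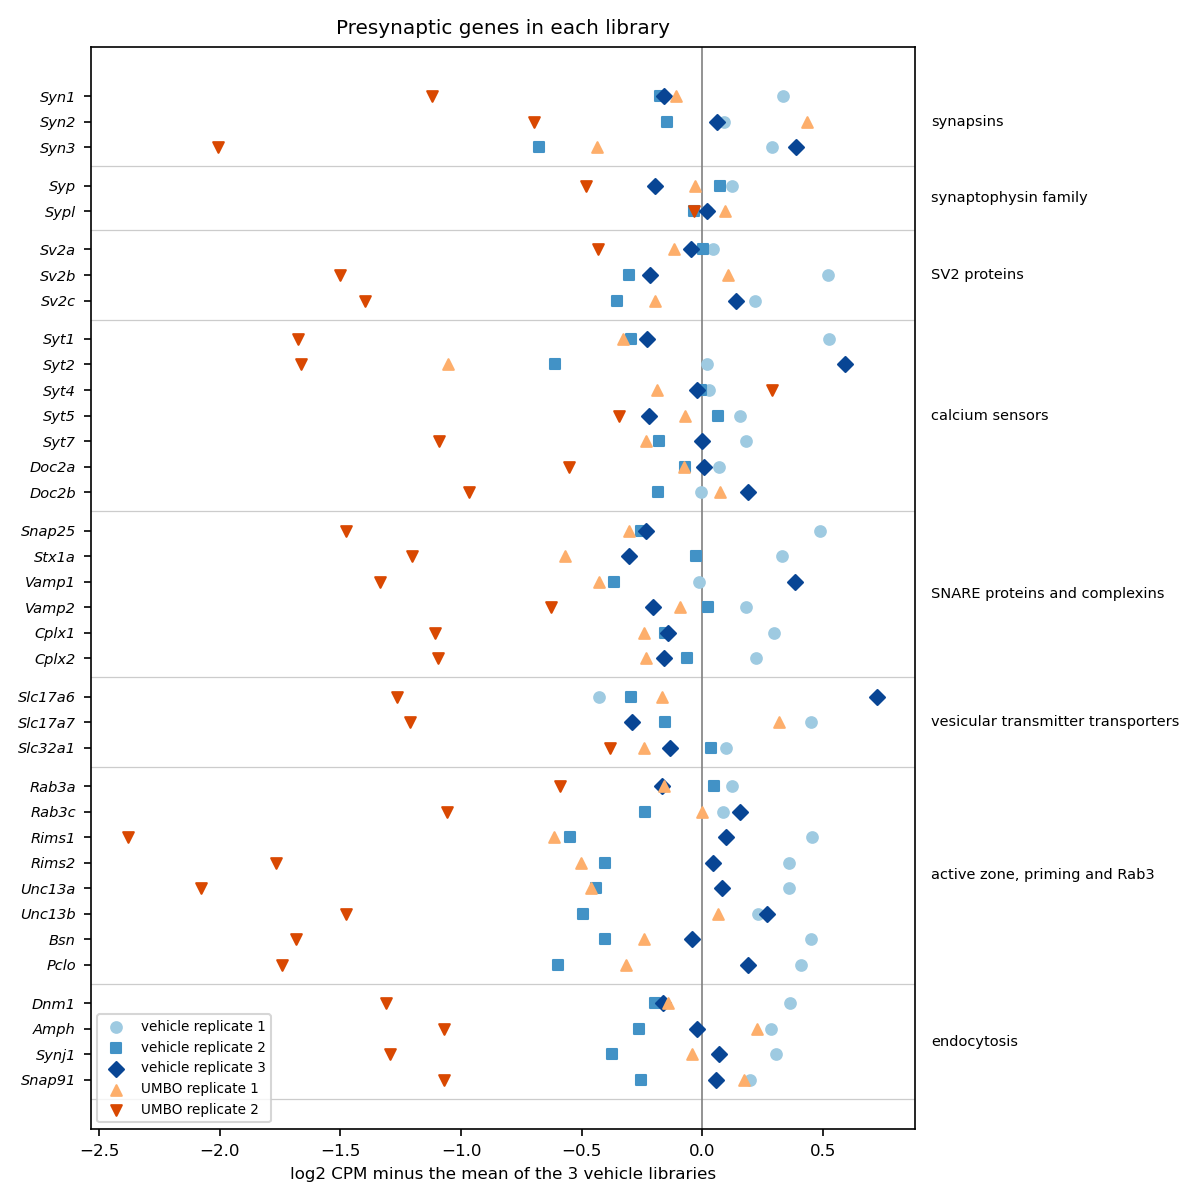
Each row is a presynaptic gene and each point a library, plotted as log2 CPM minus the mean of the 3 vehicle libraries, with genes grouped by role. UMBO replicate 2 is the lowest library in 35 of the 36 rows, whereas UMBO replicate 1 lies within the vehicle range in 19.

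The SNARE proteins form the complex that drives fusion, and complexins clamp and release it. All 6 genes of this group had negative log2 fold changes, from -0.88 to -0.34. In 5 of them both UMBO libraries lay below every vehicle library, against 11.4% of all genes. Stx1a (chromosome 5 of GRCm38, 135023482 to 135051100, forward strand) encodes a plasma membrane SNARE. It was at 212, 165 and 136 CPM in the vehicle libraries and at 113 and 73.0 CPM in the UMBO libraries. Both UMBO values were thus below the lowest vehicle value. Its log2 fold change was -0.88 (standard error 0.298; edgeR unadjusted p = 0.0262, adjusted p = 0.497). Without UMBO replicate 2 the log2 fold change of Stx1a was -0.59 (edgeR unadjusted p = 0.0754), so the unadjusted threshold was no longer passed. Leaving out vehicle replicate 1 (-0.69, unadjusted p = 0.0811) or vehicle replicate 2 (-0.88, unadjusted p = 0.0503) had the same effect.

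Vamp1 and Vamp2 encode the vesicle SNARE synaptobrevin, and Vamp1 is known as the form of motor and other caudal neurons. Vamp1 (chromosome 6, 125215551 to 125245964) was at 161, 126 and 212 CPM with vehicle and at 120 and 64.2 CPM with UMBO. The groups did not overlap, although UMBO replicate 1 lay close to vehicle replicate 2. The log2 fold change of Vamp1 was -0.85 (standard error 0.361; edgeR unadjusted p = 0.0573). Vamp2 (chromosome 11, 69088490 to 69092384), the main form of the forebrain, was at 1282, 1148 and 980 CPM with vehicle and at 1061 and 732 CPM with UMBO, so the groups overlapped, with a log2 fold change of -0.34. Snap25, the second plasma membrane SNARE, was at 3214, 1923 and 1948 CPM with vehicle and at 1856 and 825 CPM with UMBO. Vehicle replicate 1 was far above the other libraries for Snap25, and UMBO replicate 1 was just below vehicle replicates 2 and 3. Its log2 fold change was -0.82 (standard error 0.474), and -0.34 without UMBO replicate 2. Cplx1 and Cplx2 had log2 fold changes of -0.63 and -0.61, which became -0.25 and -0.24 without that library.

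Among the calcium sensors, Syt2 differed most of all 36 genes. Synaptotagmin 2 is a fast calcium sensor used mainly by neurons of the brainstem and spinal cord and by some inhibitory neurons. Syt2 (chromosome 1, 134646677 to 134762593, forward strand) was at 76.9, 49.7 and 114 CPM with vehicle and at 36.5 and 23.9 CPM with UMBO. Both UMBO libraries lay below the lowest vehicle library, while the vehicle libraries themselves differed widely. Its log2 fold change was -1.41 (standard error 0.400; edgeR unadjusted p = 0.0126, adjusted p = 0.497). DESeq2's Wald test gave Syt2 an adjusted p of 0.175. Over the 5 fits that each lacked 1 library, Syt2 stayed between -1.78 and -1.07, and it was at -1.14 in the fit without UMBO replicate 2.

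Synaptotagmin 1 (Syt1; chromosome 10, 108497650 to 109010982), the fast sensor of most forebrain neurons, was at 1756, 994 and 1040 CPM with vehicle and at 971 and 382 CPM with UMBO. UMBO replicate 1 differed little from vehicle replicates 2 and 3. The log2 fold change of Syt1 was -0.90 (standard error 0.501), and -0.38 without UMBO replicate 2. Syt7, a slow sensor of asynchronous release, had a log2 fold change of -0.61, with the groups apart, and of -0.24 without UMBO replicate 2. Doc2a and Doc2b encode calcium sensors of spontaneous and asynchronous release and had log2 fold changes of -0.30 and -0.36. Doc2a was apart only by 33.0 CPM in UMBO replicate 1 against 33.1 CPM in vehicle replicate 2. Syt5 had a log2 fold change of -0.21, which turned to 0.09 when the libraries were scaled to pan-neuronal markers. Syt4 was the exception of this group. It encodes a synaptotagmin that does not bind calcium through its first C2 domain and that is induced by activity. It was at 275, 269 and 266 CPM with vehicle, at 237 CPM in UMBO replicate 1 and at 330 CPM in UMBO replicate 2, so the UMBO libraries lay on opposite sides of a narrow vehicle range. The log2 fold change of Syt4 was 0.07 (standard error 0.226).

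Promoter sequences are shown for the genes with an unadjusted p under 0.05, Syt2 and Stx1a, and for Syn1, whose promoter held 2 of the 3 motifs searched for. The sequences are from RefSeq on GRCm38 and give the 250 bases before the annotated start, 5′ to 3′ on the strand of the gene. For Syt2, the more upstream of its annotated starts is shown.
Syt2 (chr1:134646362-134646611, forward strand): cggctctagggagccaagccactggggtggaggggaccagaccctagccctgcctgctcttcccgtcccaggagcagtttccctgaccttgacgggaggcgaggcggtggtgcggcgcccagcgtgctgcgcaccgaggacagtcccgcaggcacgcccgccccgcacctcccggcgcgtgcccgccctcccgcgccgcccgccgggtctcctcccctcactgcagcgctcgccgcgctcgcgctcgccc
Stx1a (chr5:135023232-135023481, forward strand): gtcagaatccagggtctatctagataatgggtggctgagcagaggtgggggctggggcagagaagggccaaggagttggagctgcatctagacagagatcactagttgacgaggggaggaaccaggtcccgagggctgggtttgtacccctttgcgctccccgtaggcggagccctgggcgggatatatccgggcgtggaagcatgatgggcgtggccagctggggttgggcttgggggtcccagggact
Syn1 (chrX:20920919-20921168, reverse strand): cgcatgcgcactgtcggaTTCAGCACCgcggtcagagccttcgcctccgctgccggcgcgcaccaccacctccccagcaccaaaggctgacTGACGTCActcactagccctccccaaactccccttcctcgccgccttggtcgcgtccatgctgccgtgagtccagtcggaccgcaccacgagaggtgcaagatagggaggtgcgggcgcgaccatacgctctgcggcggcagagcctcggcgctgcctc
Capitals mark exact matches to TTCAGCACC, the left part of the element bound by REST, a repressor of neuronal genes outside neurons, or to TGACGTCA, the cAMP response element. Both strands were searched, also for GGACAGCGC, the right part of the REST element. Of the 27 presynaptic genes with a promoter in the table, only Syn1 held TTCAGCACC, at 232 bases before the start, or TGACGTCA, at 159 bases before it. Of the 32851 promoters in the table, 0.301% held TTCAGCACC, 1.55% TGACGTCA and 0.304% GGACAGCGC in the same 250 bases. The log2 fold change of Syn1 was -0.55, near the median of the 36, and it was -0.13 without UMBO replicate 2.

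None of the vesicle protein genes had an unadjusted p under 0.05. Synapsins tether vesicles to each other and to actin. Syn1 was at 699, 491 and 496 CPM with vehicle and at 514 and 255 CPM with UMBO, so UMBO replicate 1 lay inside the vehicle range. Syn2 was at 473, 401 and 464 CPM with vehicle, at 600 CPM in UMBO replicate 1 and at 274 CPM in UMBO replicate 2. For Syn2 the UMBO libraries thus lay on either side of all vehicle libraries, and its log2 fold change of -0.03 became 0.07 when only library size was used and 0.21 under scaling to pan-neuronal markers. Syn3, the synapsin with the lowest level, differed by -1.09 in log2 fold change (standard error 0.563). It was at 10.9, 5.56 and 11.7 CPM with vehicle and at 6.58 and 2.20 CPM with UMBO. Its counts are uncertain, because 1733 of its 12282 exonic bases overlap Timp3 on the opposite strand.

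Synaptophysin (Syp), an abundant membrane protein of the vesicle, was at 1321, 1278 and 1057 CPM with vehicle and at 1186 and 869 CPM with UMBO. Its relative Sypl, which is expressed in many non-neuronal tissues, was the most even of the 36 genes. Sypl (chromosome 12, 32953891 to 32979860) was at 49.0, 47.3 and 49.0 CPM with vehicle and at 51.6 and 47.2 CPM with UMBO, a log2 fold change of 0.03 (standard error 0.149). The SV2 glycoproteins regulate the readiness of vesicles for release. Sv2a, found in nearly all neurons, was at 519, 505 and 487 CPM with vehicle and at 464 and 373 CPM with UMBO. The groups were apart for Sv2a, by a small margin, and its log2 fold change was -0.27 (standard error 0.223). Scaling to pan-neuronal markers turned the log2 fold changes of Sv2a (to 0.03) and Syp (-0.25, to 0.04). Sv2b (chromosome 7, 75114894 to 75309262) was at 493, 279 and 296 CPM with vehicle, at 370 CPM in UMBO replicate 1 and at 122 CPM in UMBO replicate 2. Sv2c (chromosome 13, 95954594 to 96132577), prominent in the basal ganglia, was at 92.1, 61.9 and 87.1 CPM with vehicle and at 69.1 and 30.0 CPM with UMBO. In both genes UMBO replicate 1 lay inside the vehicle range and UMBO replicate 2 far below it, and the log2 fold changes were -0.53 and -0.70 (0.06 and -0.22 without UMBO replicate 2).

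The vesicular transporters mark the transmitter a neuron releases. Slc17a7 (VGLUT1; chromosome 7, 45163949 to 45176142) is the glutamate transporter of cortical and hippocampal projection neurons. It was at 1237, 812 and 739 CPM with vehicle, at 1127 CPM in UMBO replicate 1 and at 390 CPM in UMBO replicate 2, a log2 fold change of -0.29 (standard error 0.506) that was 0.28 without UMBO replicate 2. Slc17a6 (VGLUT2; chromosome 7, 51622006 to 51671119) is the glutamate transporter of thalamic and other subcortical neurons. It was at 76.9, 84.5 and 171 CPM with vehicle and at 92.3 and 43.1 CPM with UMBO, a log2 fold change of -0.71 (-0.27 without UMBO replicate 2), and vehicle replicate 3 was the highest library by far. Slc32a1 (VGAT), which loads GABA and glycine, was at 104, 99.4 and 88.3 CPM with vehicle and at 82.0 and 74.4 CPM with UMBO. Of the 3 transporters only Slc32a1 had groups that did not overlap, with a log2 fold change of -0.31 (standard error 0.173) and of -0.0021 after scaling to pan-neuronal markers.

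The genes of the active zone and of vesicle priming, with the Rab3 GTPases of the vesicle, had a median log2 fold change of -0.88 over 8 genes. This was the lowest median of the 8 roles in the main fit, and all 8 values were negative. In vehicle replicate 2 the group also had the lowest median of the 8 roles, at -0.42 from the vehicle mean. With the trend on gene span removed (given below), the 8 values ran from -1.02 for Unc13a to -0.098 for Rab3c. The role medians were not taken in that fit. Rims1 and Rims2 encode scaffolds that link Rab3 on the vesicle to calcium channels. Rims1 was at 285, 142 and 223 CPM with vehicle and at 136 and 40.0 CPM with UMBO, a log2 fold change of -1.30 (standard error 0.576; edgeR unadjusted p = 0.0651). Rims2 (chromosome 15, 39198261 to 39684372) was at 155, 91.1 and 124 CPM with vehicle and at 84.9 and 35.4 CPM with UMBO, a log2 fold change of -1.04 (standard error 0.429; edgeR unadjusted p = 0.0525). For both genes UMBO replicate 1 lay just below vehicle replicate 2, and UMBO replicate 2 far below all others. Without UMBO replicate 2 Rims1 was at -0.67 and Rims2 at -0.53. Unc13a, which encodes the priming factor Munc13-1, was at 440, 252 and 363 CPM with vehicle and at 249 and 81.2 CPM with UMBO. For Unc13a the log2 fold change was -1.09 (standard error 0.520), and -0.50 without UMBO replicate 2. The large scaffolds Bsn and Pclo had log2 fold changes of -0.83 and -0.92, with UMBO replicate 1 inside the vehicle range in both, and of -0.28 and -0.38 without UMBO replicate 2. Unc13b, Rab3c and Rab3a had smaller values of -0.55, -0.45 and -0.36, and UMBO replicate 1 again lay inside the vehicle range.

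The endocytic genes showed no separation of the groups. Dnm1, the GTPase that pinches vesicles from the membrane, was at 1269, 861 and 881 CPM with vehicle and at 895 and 398 CPM with UMBO. The log2 fold changes of Dnm1, Synj1 (a lipid phosphatase that uncoats vesicles), Snap91 (a clathrin adaptor) and Amph (amphiphysin) were -0.64, -0.56, -0.33 and -0.30. Without UMBO replicate 2 they were -0.16, -0.07, 0.16 and 0.21, so Snap91 and Amph changed sign. Sv2b (0.06), Doc2b (0.06), Unc13b (0.03), Slc17a7 and Syn2 (0.43) were also positive without this library, and Syt4 was negative (-0.19).

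**Figure D2:**
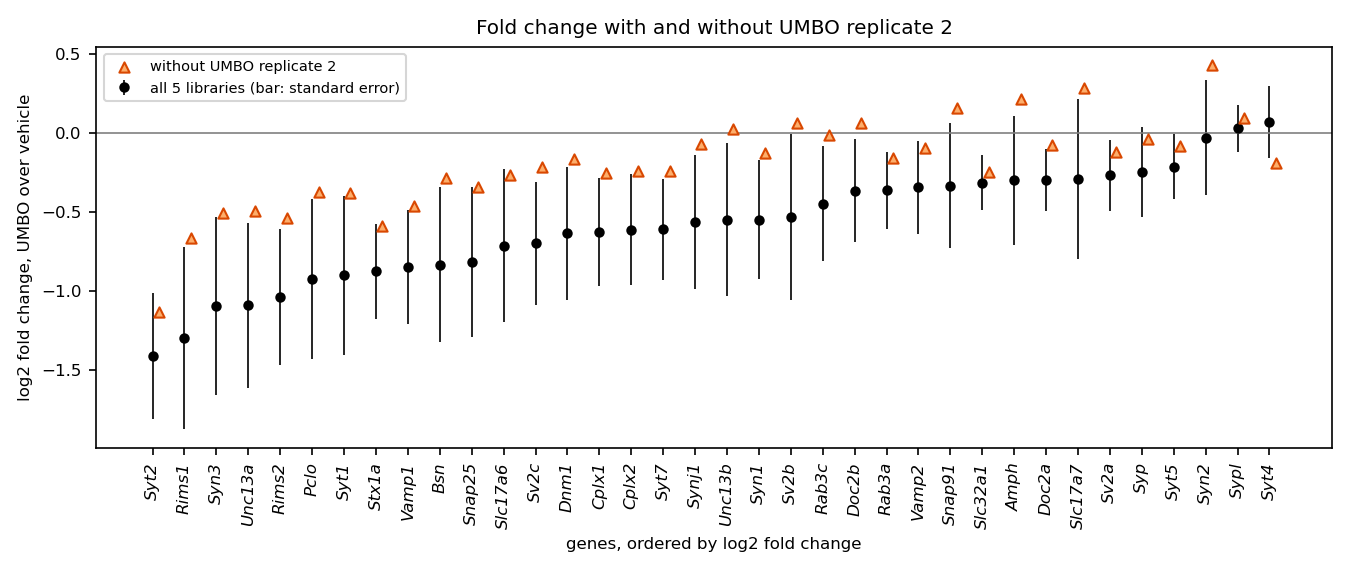
Log2 fold change of each presynaptic gene, UMBO over vehicle, ordered by size, with black points and standard error bars for all 5 libraries and triangles for the fit without UMBO replicate 2. The black points run from -1.41 (Syt2) to 0.07 (Syt4), and the triangle lies above the black point for every gene but Syt4.

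To compare levels between genes, CPM was divided by the exonic length of each gene in kb. This length joins the exons of all annotated transcripts of the gene, and which of them were expressed was not tested. By CPM per kb the SNARE and vesicle genes led. In the vehicle libraries Snap25 was at 348 ± 109 CPM per kb (SD, n = 3), Vamp2 at 298 ± 39.8, Cplx2 at 282 ± 39.8, Cplx1 at 254 ± 47.4 and Syp at 234 ± 27.1. The scaffold and priming genes lay lower, with Rims1 at 29.5 ± 9.75, Bsn at 26.9 ± 8.07 and Pclo at 13.2 ± 4.38 CPM per kb. Sypl (5.80 ± 0.121), Unc13b (2.93 ± 0.788) and Syn3 (0.763 ± 0.270) closed the order, and the mean of Snap25 was 456 times that of Syn3. Of the 35 steps between neighbours in the order, 5 were larger than the spread of the vehicle libraries, in that the ranges did not overlap. These were the steps below Syt1, Sv2a, Sv2c, Sypl and Unc13b.

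**Figure D3:**
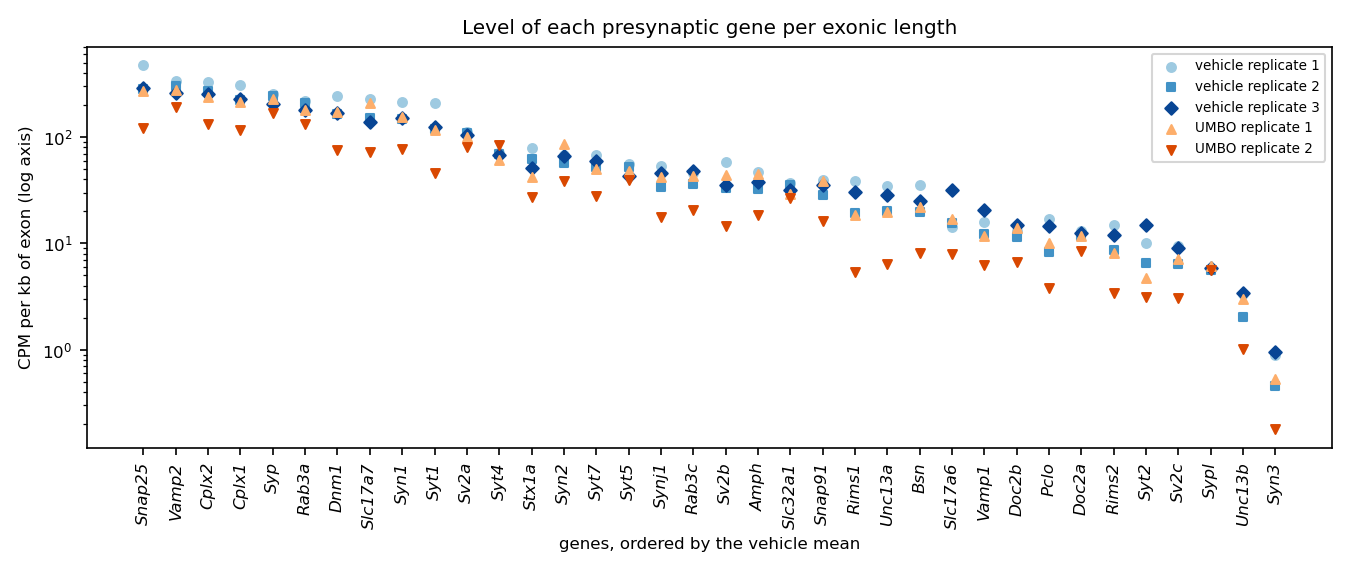
Level of each presynaptic gene in each library, in CPM per kb of exon on a log axis, ordered by the vehicle mean. The order runs from Snap25 at 348 to Syn3 at 0.763 CPM per kb, and UMBO replicate 2 is the lowest point in all but Syt4.

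Related genes used by different neurons were set against each other within each library, as the log2 ratio of their levels per kb. A ratio of this kind does not depend on the scaling of the library. For Slc17a6 to Slc17a7 it was -4.01, -3.27 and -2.11 with vehicle and -3.61 and -3.18 with UMBO. The vehicle libraries alone spanned more than the UMBO libraries did. The difference, UMBO minus vehicle, was -0.27 (2-sided exact permutation test, p = 0.9), and its sign changed to 0.24 without vehicle replicate 3. For Syt2 to Syt1 the difference was -0.36 (exact permutation p = 0.7), for Vamp1 to Vamp2 it was -0.53 (exact permutation p = 0.4) and for Sv2c to Sv2b -0.10 (exact permutation p = 0.9). All 4 had an adjusted p of 0.9 by the exact permutation test over the 4 ratios, and 3 libraries against 2 cannot give less than 0.1. In vehicle replicate 3 each of the 4 ratios was the highest of the 5 libraries, at -3.06 for Syt2 to Syt1, -3.63 for Vamp1 to Vamp2 and -1.98 for Sv2c to Sv2b. Markers of the brainstem and cerebellum were also high in that library, with a median of 1.31 above the vehicle mean in log2 CPM over 5 genes with enough reads. Their levels were low, and Chat (4.29 CPM) and Cbln3 (0.626 CPM) in that library lay between the other vehicle libraries. The summed level of the list was 15.3 CPM in vehicle replicate 3 and higher in UMBO replicate 1, at 25.9 CPM, of which Slc6a5 made up 19.0 CPM. The part of these markers in the ratios was not tested.

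Another 48 genes of the presynaptic terminal, in a list that shares no gene with the 36, had a median log2 fold change of -0.44. Of these, 44 were negative and 4 positive, 0 passed the adjusted threshold in edgeR, and 4 were lower at an unadjusted p under 0.05, against 2.06% of all genes. Those 4 were Unc13c, which encodes a priming factor (log2 fold change -1.01, standard error 0.244), Syt6 (-0.59, standard error 0.179), Rph3a, a Rab3 effector (-1.01, standard error 0.318), and Rims3, a small active zone protein (-0.88, standard error 0.302). Unc13c was at 81.5, 69.4 and 94.2 CPM with vehicle and at 48.2 and 32.9 CPM with UMBO. Each of the 4 genes had both UMBO libraries below every vehicle library, as did 12 of the 48, against 11.4% of all genes. The positive values included those of Rab3d (0.13), Slc18a2 (0.10) and Slc18a3 (0.07). Without UMBO replicate 2 the median of the 48 was -0.08.

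Markers of other cells differed between the same libraries. The 16 pan-neuronal markers that do not belong to the synapse had a median log2 fold change of -0.28, with 14 negative and 2 positive. In 7 of these 16 markers both UMBO libraries lay below every vehicle library, against 11.4% of all genes. Their summed level lay between 8410 and 9593 CPM with vehicle and was 8490 and 5836 CPM in UMBO replicates 1 and 2, whereas the summed level of the 36 presynaptic genes was 15010 and 7880 CPM against 14630 to 20280 CPM with vehicle. When the libraries were scaled so that the pan-neuronal markers were level, the median log2 fold change of the presynaptic genes was -0.33, against -0.56 in the main fit. That of all genes moved to 0.32. Relative to all genes, the pan-neuronal markers were at -0.30 in both fits, and the presynaptic genes at -0.57 in the main fit and -0.65 on the pan-neuronal scale. On that scale 30 of the 36 were negative, and in 10 both UMBO libraries lay below every vehicle library, against 5.29% of all genes on that scale. Syt2 (-1.13), Rims1 (-1.08), Syn3 and Unc13a (both -0.87) and Rims2 (-0.79) were the lowest on this scale. With the main scaling but without UMBO replicate 2, the presynaptic genes were at -0.16 relative to all genes and the pan-neuronal markers at -0.11. The other presynaptic genes were at -0.065 in that fit.

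The 10 proliferation markers all had positive log2 fold changes (median 2.15), with a summed level of 33.5 to 105 CPM with vehicle, 112 CPM in UMBO replicate 1 and 461 CPM in UMBO replicate 2. All 10 microglia and macrophage markers were positive too (median 1.56), at 321 to 732 CPM with vehicle and at 781 and 1591 CPM with UMBO. Vehicle replicate 2, the vehicle library with the lowest value for 25 of the 36 presynaptic genes, was the highest vehicle library in both lists. Cortical and hippocampal projection neuron markers had a median log2 fold change of -0.63 over 10 genes, striatum markers -0.62, thalamus markers -0.26, astrocyte markers -0.10, oligodendrocyte markers -0.04 and endothelial markers 0.57. Both UMBO libraries lay below every vehicle library in 5 of the 10 cortical and hippocampal markers and 6 of the 10 striatum markers, against 11.4% of all genes. The count was 2 for oligodendrocyte markers and 0 for thalamus, astrocyte and endothelial markers. In the opposite direction, UMBO was higher without overlap of the groups in 7 of the 10 endothelial markers, against 11.5% of all genes. This count was also 7 of 10 for proliferation markers, and it was 6 of 10 for microglia and macrophage markers. It was 2 for oligodendrocyte markers, 1 each for thalamus and astrocyte markers, and 0 for cortical and hippocampal and for striatum markers. Markers of the striatum, into which the tumor cells were injected, were lower in UMBO replicate 1 (median -0.76 from the vehicle mean) than in UMBO replicate 2 (-0.45), in contrast to the presynaptic genes. No gene of these lists was at 0 in a library except Hoxb5 of the brainstem and cerebellum list. The part of each cell type in the lower presynaptic values was not tested.

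**Figure D4:**
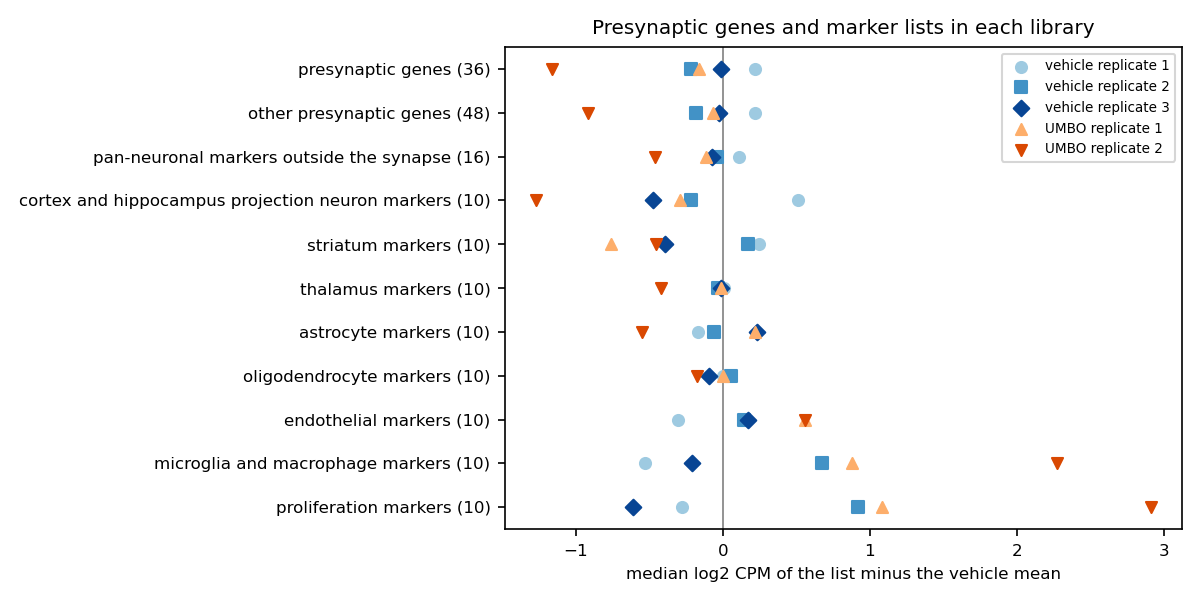
Median log2 CPM of each gene list minus the vehicle mean, 1 point per library, with the number of genes tested in brackets. The presynaptic genes are at -1.16 in UMBO replicate 2, where proliferation markers are at 2.92 and microglia and macrophage markers at 2.28.

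In UMBO replicate 2 the values of the presynaptic genes differed with gene span, from first to last annotated base. The 18 longest (60.5 to 520 kb) had a median of -1.48 from the vehicle mean in this library, and the 18 shortest (3.90 to 49.1 kb) a median of -0.80. Rims1, with the longest span, was at -2.38, whereas Rab3a, Vamp2 and Doc2a, among the shortest, were at -0.59, -0.63 and -0.55. There were exceptions, such as Unc13a (47341 bases) at -2.08 and Slc17a7 (12194 bases) at -1.21 among the shorter genes and Syn2 (147105 bases) at -0.70 among the longer ones. Across the 36 genes Spearman's rho between span and this difference was -0.72 in UMBO replicate 2, -0.81 in vehicle replicate 2 and -0.20 in UMBO replicate 1. In vehicle replicates 1 and 3 it was 0.45 and 0.44, values that partly mirror vehicle replicate 2, because the 3 vehicle libraries define the mean. For UMBO replicate 2 Pearson's r on log2 span was -0.73, and for vehicle replicate 2 -0.81. The genes of a library share its RNA and are not independent replicates. The same sign was found over all 16413 protein-coding genes tested, where rho was -0.41 for UMBO replicate 2 and -0.47 for vehicle replicate 2. Exonic length in place of span gave the 36 genes similar rho values, -0.65 (UMBO replicate 2) and -0.79 (vehicle replicate 2). For the 16413 genes these values were -0.42 and -0.51, in the same order. Whether the differences follow span or exonic length was not tested. With the trend on gene span removed from each library, an alternative chosen after seeing the data, the 36 genes had a median of -0.44 in log2 fold change, with 33 negative, 12 in which both UMBO libraries lay below every vehicle library (12.2% of all genes in that fit) and 6 at an unadjusted p under 0.05 (2006 of all genes). These 6 were Syt2 (-1.13), Stx1a (-0.86), Rims1 (-0.87), Rims2 (-0.56), Vamp1 (-0.82) and Slc32a1 (-0.45), and 0 passed the adjusted threshold in edgeR.

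**Figure D5:**
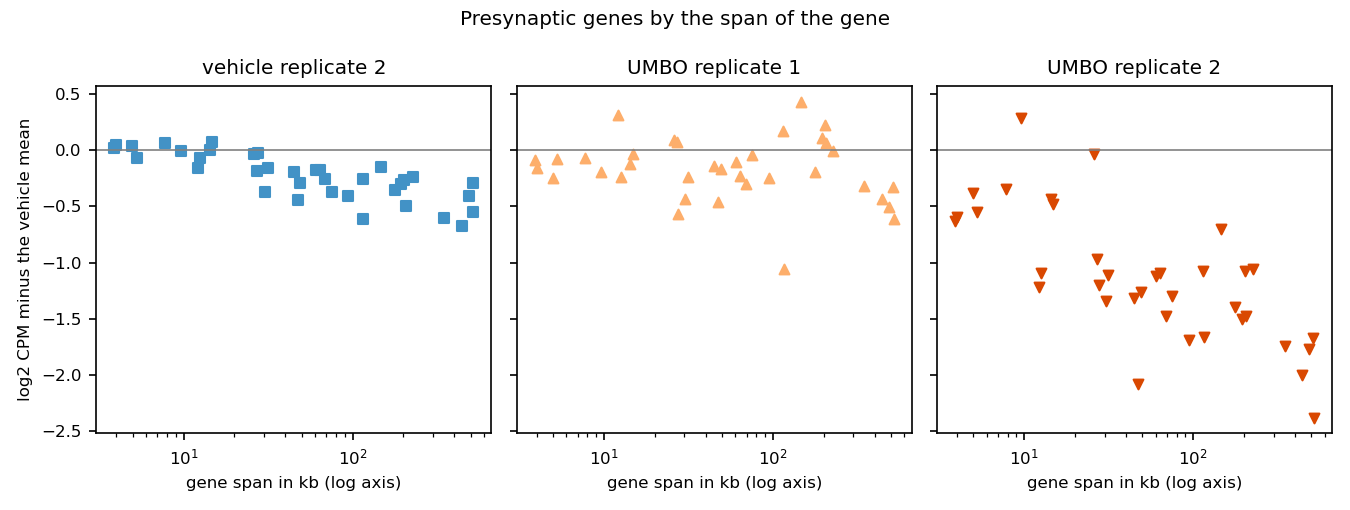
Log2 CPM of each presynaptic gene minus the vehicle mean against the span of the gene in kb (log axis), in vehicle replicate 2, UMBO replicate 1 and UMBO replicate 2. The points slope down with span in vehicle replicate 2 (rho -0.81) and UMBO replicate 2 (rho -0.72), and not visibly in UMBO replicate 1 (rho -0.20).

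Of the 36 genes, 14 share exonic bases with a gene on the opposite strand. These include Syn1, Syn2, Syn3, Syp, Syt4, Syt7, Doc2a, Doc2b, Slc32a1, Rab3a, Unc13a and Pclo. Whether the counting used strand is not given in the sources used here, so reads over the shared bases cannot be told apart. The shared stretch ran from 9 bases in Syn1 to 1733 in Syn3. It was 1103 of 2803 exonic bases in Doc2a and 697 of 2797 in Slc32a1, so the values of these genes are uncertain too. Snap25, Stx1a, Vamp1, Vamp2, Syt1, Syt2, Rims1 and Rims2 have no such overlap.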

How the data were processed

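Bulk RNA-seq of right hemispheres bearing GL261 tumors was analysed, in 3 vehicle and 2 UMBO libraries grouped by their GEO labels. The authors mapped the reads to GRCm38 with STAR 2.7.2a and deposited raw read counts per Ensembl gene, 1 table per library; the annotation release and strand setting are not given in the sources used here. Symbols, positions and exonic lengths were taken from GENCODE M21, on the same build. The presynaptic genes and all lists were chosen with earlier results of these data known, and every one of the 36 genes is described.

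Counts were normalized by TMM, filtered with filterByExpr and compared in edgeR 4.0.16 under R 4.3.3 by its quasi-likelihood F-test, without covariates, adjusted by Benjamini-Hochberg over the 23592 genes tested, at a threshold of 0.05. The standard error is the log2 fold change divided by the square root of the test's F. Log2 CPM used a prior count of 2. For ratios, all 10 groupings of the libraries were enumerated in an exact permutation test, 2-sided. The p-values measure the spread between these libraries only. Scripts were tested on simulated data. DESeq2 1.42.0 and the other alternatives are given in the closing section. Of the other presynaptic genes, the 4 with the smallest p in each direction are named, except for 1 gene that is not reported here.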

Additional observations from a re-analysis of the deposited data

How the results depend on the processing

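The median log2 fold change of the presynaptic genes was negative under every alternative run, and no alternative other than the replicate block and leaving out UMBO replicate 1 brought a presynaptic gene past the adjusted threshold. Leaving out 1 library at a time gave medians from -1.21 to -0.18 for the presynaptic genes, from -0.96 to -0.079 for the other presynaptic genes and from -0.50 to -0.12 for the pan-neuronal markers. It gave 0 to 21 presynaptic genes past the adjusted threshold, 1 to 29 at an unadjusted p under 0.05, 14 to 36 with groups that did not overlap, 0 to 22 of the other presynaptic genes and 0 to 4543 of all genes past the adjusted threshold. Without vehicle replicate 2, 4 presynaptic genes had an unadjusted p under 0.05 (2674 of all genes) and 21 had both UMBO libraries below the others (27.6% of all genes; 13.8% to 41.3% over the 5 fits that each lacked 1 library), and without vehicle replicate 1 or UMBO replicate 2 only 1 had such a p. The upper ends are those without UMBO replicate 1, where the lone UMBO library is assumed to vary like the vehicle libraries. The range of 14 to 36 counts groups apart in either direction, for which no share of all genes was taken. Counting only genes lower with UMBO, the range was 14 to 35, beside the 13.8% to 41.3% of all genes.

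Against 2 presynaptic genes at an unadjusted p under 0.05, DESeq2's Wald test gave 7 and no filter on low counts 9. Removing the trend on gene span or on exonic length, both added after seeing the data, gave 6 each, beside 2006 and 2034 of all genes. The cause of these differences was not tested. Over all genes, 1738 had an unadjusted p under 0.05 (1251 higher), against 2738 with DESeq2, 4100 with no filter, 2987 (2787 higher) with scaling to the pan-neuronal markers, and 296 to 10165 with 1 library left out; 40 passed the adjusted threshold with DESeq2 (27 higher, 13 lower), none of them among the 36 or the other 48 presynaptic genes. Scaling to the pan-neuronal markers brought their own median to 0.028 by construction, and library size only moved the median of all genes to 0.13.

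With the replicate number as a block, 9 presynaptic genes, 7 of the other presynaptic genes and 2337 of all genes passed the adjusted threshold in edgeR, and 19 presynaptic genes had an unadjusted p under 0.05, as did 6134 of all genes. Nothing in the labels ties equal numbers to a common litter or day, numbers 1 and 2 alone occur in both groups, and the deviations of the UMBO libraries mirror each other by construction (correlations of 0.453 and 0.76 with the vehicle library of the same number, and 0.521 between vehicle replicate 3 and UMBO replicate 1), so the block does not rest on pairs.

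Single genes changed sign as follows. With scaling to the pan-neuronal markers Sv2a was at 0.030, Syp at 0.044, Syt5 at 0.092 and Syn2 at 0.21. Syn2 was at 0.00073 with a minimum of 1 CPM in 3 libraries, 0.066 with library size only, 0.11 with the trend on exonic length removed and 0.23 with that on gene span removed, where Amph was at 0.0086 and Syt4 at -0.048. With 1 library left out values ran from -1.12 to 0.21 for Amph, -1.01 to 0.065 for Doc2b, -1.28 to 0.28 for Slc17a7, -1.11 to 0.16 for Snap91, -1.58 to 0.061 for Sv2b, -0.73 to 0.43 for Syn2, -0.065 to 0.094 for Sypl, -0.19 to 0.26 for Syt4 and -1.55 to 0.027 for Unc13b. The difference in log2 ratio ranged from -0.71 to 0.24 for Slc17a6 to Slc17a7, -0.30 to 0.10 for Sv2c to Sv2b, and -0.72 to 0.054 for Syt2 to Syt1; that of Vamp1 to Vamp2 stayed negative, and no exact permutation test could pass 0.05. Each presynaptic gene had at least 144 reads in every library; the effect of the number of mice was not tested.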
